A study of Mus musculus with 40 samples.

Results

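Podocyte genes were followed in the renal cortex of diabetic and non-diabetic mice: Nphs1, Podxl, Wt1, Synpo, Plce1, Ptpro, Magi2 and Cd2ap. These 8 genes were taken from the 55401 genes of the count table by their symbols. Each symbol matched 1 row, and all 8 passed the filter on low counts in every comparison. Podocytes are the epithelial cells that wrap the capillaries of the glomerulus with interlocking foot processes. The slit diaphragm, a thin protein bridge between neighbouring foot processes, retains albumin in the blood, and inherited loss of several of these genes causes nephrotic syndrome. Podocytes hardly divide, so their number and the state of their foot processes are followed closely in diabetic kidney disease.

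Total RNA depleted of ribosomal RNA was sequenced from the cortex of single male C57BL/6J mice, 5 in each of 8 groups. Akita mice were heterozygous for Ins2-Akita, a mutation of the insulin 2 gene that is carried in every cell and causes diabetes through loss of pancreatic beta cells, and WT mice were their littermates. WT and Akita mice received by gavage, daily from 6 to 22 weeks of age, either the ethanol vehicle, which was 10% ethanol, or MitoGamide dissolved in it and given at 10 mg/kg. MitoGamide is a scavenger of methylglyoxal and other dicarbonyls that accumulates in mitochondria. A second set of WT and Akita mice received the water vehicle or MitoQ, a mitochondria-targeted antioxidant whose dose is not given in the sources used here, and the labels hold the same treatment text for this set. The 40 libraries held between 9106654 and 24321424 estimated counts. Ribosomal RNA that remained (the genes mt-Rnr1, mt-Rnr2 and CT010467.1) took 10.7% to 63.2% of a library's counts. The share was at most 27.4% in the 20 libraries of the ethanol and MitoGamide groups, and it exceeded 30% in 6 of the 20 libraries of the water and MitoQ groups, so genotype and treatment comparisons of the second set are also given without these 6. The order of groups, the balance among members, the correlations and the likeness to other genes are given with all 40 libraries.

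Each of the 8 genes was detected in each of the 40 libraries, with 50 counts for Wt1 in 1 WT mouse on MitoQ as the lowest value. The cortex was checked against markers of other cells. All 8 listed proximal tubule genes exceeded 1 CPM (the unit used here for counts scaled to library size, with TMM scaling) on average in each group and summed to between 9063 and 18137 CPM per library, against 298 to 562 CPM for the 8 podocyte genes together. Markers of adrenal gland stayed below 1 CPM in sum in every library. Markers of urothelium and papilla summed to as much as 9.55 CPM in Akita mice on water and 9.63 CPM in Akita mice on MitoQ, and adipose markers to as much as 9.25 CPM in WT mice on water, against at most 2.08 and 1.65 CPM in the ethanol and MitoGamide groups. A bulk sample cannot tell fewer podocytes from less RNA per podocyte.

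Levels of different genes can be compared only per length. Divided by the length of merged exons in GENCODE M21, Podxl stood at 26.3 ± 3.18 CPM per kilobase in WT mice on ethanol (SD, n = 5). Podxl encodes podocalyxin, a charged surface protein of foot processes that is also made by endothelium. Cd2ap, an adaptor that ties the slit diaphragm to actin and is made by many cell types, was at 6.20 ± 0.368, and Synpo was at 3.67 ± 0.391. Nphs1 (1.86 ± 0.294), Magi2 (1.63 ± 0.124) and Ptpro (1.51 ± 0.221) followed, with overlapping spreads. Wt1 (0.758 ± 0.186) and Plce1 (0.513 ± 0.0530) were lowest. Merged exons cover all annotated transcripts, not only those expressed, so this order can depend in part on the annotation. Because Podxl and Cd2ap carry most of the summed CPM, a sum over the members mainly reports these genes, and each gene is therefore described alone.

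Positions are given in GRCm38. Nphs1 (ENSMUSG00000006649.17) lies at chr7:30458315-30487223 (plus strand), Podxl (ENSMUSG00000025608.9) at chr6:31519488-31563981 (minus) and Wt1 (ENSMUSG00000016458.15) at chr2:105126529-105173616 (plus). Plce1 (ENSMUSG00000024998.17) lies at chr19:38481109-38785030 (plus), Ptpro (ENSMUSG00000030223.14) at chr6:137252319-137463233 (plus), Magi2 (ENSMUSG00000040003.18) at chr5:19227036-20704792 (plus) and Cd2ap (ENSMUSG00000061665.7) at chr17:42792951-42876665 (minus). An antisense transcript, Nphs1os, lies within Nphs1, and the strand setting of the counting is not given in the sources used here, so reads of the pair may be mixed.

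Promoter windows of 4 of these genes are shown to set 3 members that were higher in Akita mice (Nphs1, Plce1, Ptpro) beside Cd2ap, which showed no such difference. Each window runs from 250 bases before to 50 bases after a RefSeq transcription start in GRCm38.p6, 5′ to 3′ on the gene's strand. Nphs1 is at chr7:30459808-30460107 (plus), Plce1 at chr19:38523947-38524246 (plus), Ptpro at chr6:137252049-137252348 (plus) and Cd2ap at chr17:42876375-42876674 (minus). The starts used for Nphs1, Plce1 and Cd2ap lie inside the gene bounds of the GENCODE annotation above. Capitals mark matches on either strand to GNGTGGGNG, the letters of a binding motif of WT1, the zinc finger factor encoded by the member Wt1.
Nphs1: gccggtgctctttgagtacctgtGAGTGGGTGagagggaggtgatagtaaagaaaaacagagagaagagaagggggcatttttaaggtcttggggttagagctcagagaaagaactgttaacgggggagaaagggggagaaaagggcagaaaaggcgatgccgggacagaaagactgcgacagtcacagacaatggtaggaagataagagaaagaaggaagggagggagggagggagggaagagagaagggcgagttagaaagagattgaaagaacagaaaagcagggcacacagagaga
Plce1: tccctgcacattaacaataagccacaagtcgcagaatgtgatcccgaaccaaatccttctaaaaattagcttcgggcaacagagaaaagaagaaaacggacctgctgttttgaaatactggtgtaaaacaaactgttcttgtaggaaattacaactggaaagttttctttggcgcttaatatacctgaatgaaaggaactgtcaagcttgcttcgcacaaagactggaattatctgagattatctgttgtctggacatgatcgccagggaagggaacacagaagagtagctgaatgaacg
Ptpro: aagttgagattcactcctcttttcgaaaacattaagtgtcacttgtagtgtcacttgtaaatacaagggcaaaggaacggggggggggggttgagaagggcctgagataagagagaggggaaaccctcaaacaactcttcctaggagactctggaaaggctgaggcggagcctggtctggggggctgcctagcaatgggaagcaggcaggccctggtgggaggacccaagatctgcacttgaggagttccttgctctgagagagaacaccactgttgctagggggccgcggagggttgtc
Cd2ap: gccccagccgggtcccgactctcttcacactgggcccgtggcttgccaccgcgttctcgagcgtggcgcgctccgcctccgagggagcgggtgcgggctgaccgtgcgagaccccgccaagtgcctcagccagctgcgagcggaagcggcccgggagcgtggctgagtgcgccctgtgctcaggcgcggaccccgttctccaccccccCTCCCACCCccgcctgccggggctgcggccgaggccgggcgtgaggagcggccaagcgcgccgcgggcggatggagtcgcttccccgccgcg
The Nphs1 window held 1 match (GAGTGGGTG, plus strand) from 227 to 219 bases before the start. The Cd2ap window held 1 match on the opposite strand (CTCCCACCC as printed), from 42 to 34 bases before the start. The Plce1 and Ptpro windows held none. For Magi2 the table has 2 windows, which are not printed, and the one at chr5:19226796-19227095 held 1 match on the opposite strand (CCCCCACGC), from 119 to 111 bases before the start, while the one at chr5:19907268-19907567 held none. Over all 32851 windows of the table, 14.3% held the motif.

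**Figure D1:**
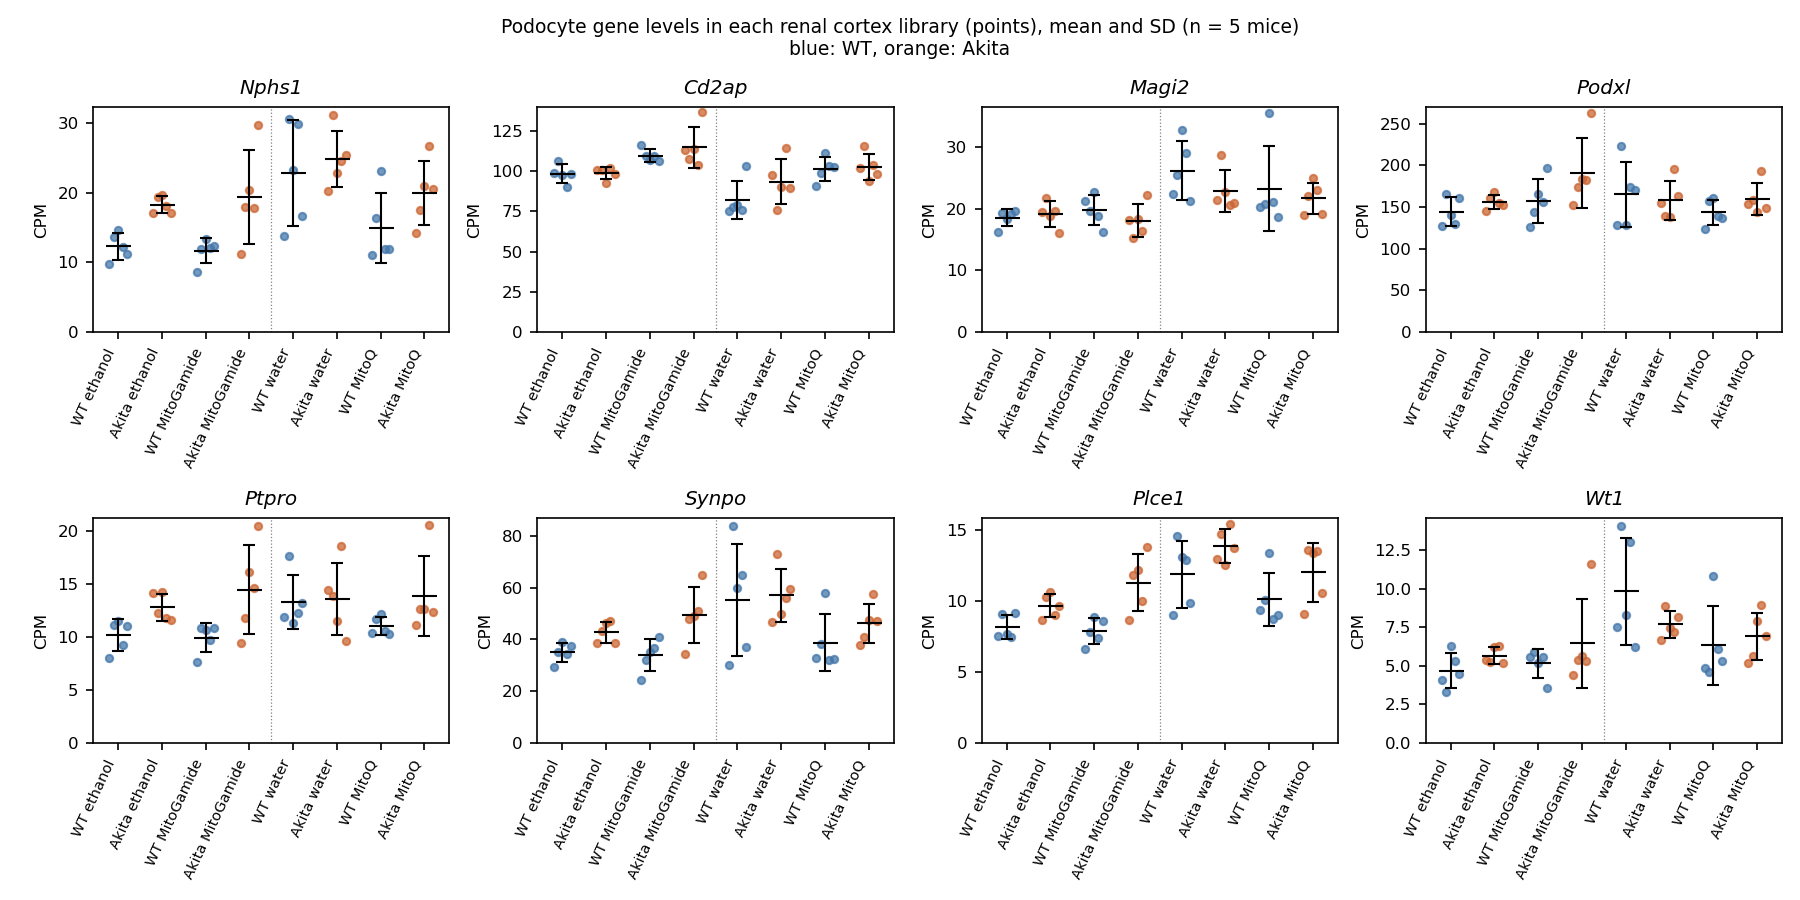
Level of each podocyte gene in CPM (y axis, linear, from 0) in each of the 40 libraries, by group (x axis), with WT in blue and Akita in orange. Points are single mice, horizontal marks are means and bars are SDs (n = 5), and the dotted line separates the ethanol set from the water set. Nphs1 ran from 17.0 to 19.7 CPM in Akita mice on ethanol and from 9.74 to 14.6 in WT mice on ethanol.

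The first question was how the podocyte genes differed between Akita and WT mice. On the ethanol vehicle, Nphs1, Synpo and Ptpro rose in Akita mice, and all 8 genes had a positive log2 fold change, except that Cd2ap turned to -0.01 when libraries were scaled by their totals and when WT replicate 4 was left out. Nphs1, which encodes nephrin, the backbone of the slit diaphragm, was at 9.74, 13.7, 14.6, 12.2 and 11.2 CPM in the 5 WT mice and at 17.1, 19.3, 19.7, 18.1 and 17.0 CPM in the 5 Akita mice. The groups did not overlap, which held in the higher direction for 5.55% of all genes compared. Nphs1 had a log2 fold change of 0.58 with a standard error (SE) of 0.10 and a 95% interval of 0.36 to 0.80. In edgeR (quasi-likelihood test) the adjusted p over 17747 genes was 0.00192.

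Ptpro, a receptor phosphatase of the podocyte surface also known as GLEPP1, was at 8.01, 11.1, 11.5, 9.26 and 11.0 CPM in WT mice and at 14.1, 12.3, 14.2, 11.8 and 11.5 CPM in Akita mice on ethanol. The lowest Akita value lay just above the highest WT value. Its log2 fold change was 0.34 (SE 0.11, adjusted p = 0.0474 from edgeR). Synpo (ENSMUSG00000043079.17) encodes the actin-associated synaptopodin of foot processes and lies at chr18:60593973-60660142 (minus strand). It was at 29.2, 35.0, 39.0, 34.4 and 37.4 CPM in WT mice and at 38.5, 43.3, 46.3, 47.1 and 38.5 CPM in Akita mice. Here the highest WT mouse stood above the 2 lowest Akita mice. Its log2 fold change was 0.30 (SE 0.08, adjusted p = 0.0264 from edgeR).

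The other 5 genes did not pass the test on ethanol. Plce1, a phospholipase C needed for glomerular development, was at 8.21 ± 0.848 CPM in WT and 9.68 ± 0.820 CPM in Akita mice (SD, n = 5). Its log2 fold change was 0.25 with an interval of 0.05 to 0.45 (edgeR adjusted p = 0.0909). Wt1, a transcription factor that maintains podocyte identity, had a log2 fold change of 0.28 (interval -0.06 to 0.61), and Podxl had one of 0.13 (interval -0.05 to 0.30). The scaffold gene Magi2, whose protein binds nephrin, and Cd2ap had values close to 0, at 0.06 (interval -0.12 to 0.24) and 0.02 (interval -0.10 to 0.14). In all, 3 of the 8 genes were called, each higher, where 16.4% of all genes tested were called and 8.18% were called higher. The median log2 fold change was 0.26 over the 8 genes and -0.002 over all genes tested. Only Nphs1 stayed below the threshold in each of the 10 fits without 1 library. Synpo was not called without Akita replicate 2, 3 or 4 or WT replicate 1 or 4, and Ptpro was not called without Akita replicate 1, 2, 3 or 5 or WT replicate 1, 4 or 5. In these fits 12.2% to 15.8% of all genes were called. With all 40 libraries in one fit none of the 3 was called, and the adjusted p of Nphs1 was 0.134, where 844 of 17769 genes were called. Markers of other cells differed on ethanol as well, with 2 of 4 distal convoluted tubule genes (median log2 fold change 0.48), 2 of 5 collecting duct genes (0.32) and 1 of 6 mesangial genes (-0.04) called higher, and 3 of 8 proximal tubule genes (-0.20), 2 of the 4 leukocyte genes tested (-0.65) and 1 of 8 endothelial genes (-0.11) called lower. Their part in the values of the members was not tested.

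Under MitoGamide, Nphs1, Synpo and Plce1 rose in Akita mice relative to WT mice on the same treatment. Nphs1 was at 8.57, 11.9, 13.3, 12.0 and 12.3 CPM in WT and at 11.2, 17.9, 20.3, 17.8 and 29.7 CPM in Akita mice. The lowest Akita mouse fell within the WT values, and 1 Akita mouse stood far above all other mice. Nphs1 had a log2 fold change of 0.76 (SE 0.21, adjusted p = 0.0314 from edgeR). Plce1 was at 6.67, 7.86, 8.91, 7.39 and 8.59 CPM in WT and at 8.66, 11.9, 12.2, 10.0 and 13.8 CPM in Akita mice. This gave a log2 fold change of 0.55 (SE 0.14, adjusted p = 0.0214). Synpo was at 24.4, 32.2, 35.2, 36.9 and 40.8 CPM in WT and at 34.5, 48.1, 48.9, 50.9 and 64.8 CPM in Akita mice. Synpo had a log2 fold change of 0.57 (SE 0.16, adjusted p = 0.0354).

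Ptpro stood just outside the threshold under MitoGamide, with a log2 fold change of 0.57 (interval 0.17 to 0.97, edgeR adjusted p = 0.0568). Podxl was at 0.31 (interval -0.02 to 0.63), Wt1 at 0.35 (interval -0.18 to 0.88), Cd2ap at 0.10 (interval -0.07 to 0.26) and Magi2 at -0.10 (interval -0.35 to 0.15), all on the log2 scale. The 3 genes called, all higher, stood against 14.3% of all genes called and 7.71% called higher. The same Akita mouse on MitoGamide (replicate 5) had the highest value of its group for all 8 genes, and without it Podxl was at 0.17, Wt1 at 0.06, Cd2ap at 0.03 and Magi2 at -0.17. None of the 8 was called without Akita replicate 2 or WT replicate 1, 2 or 4, and 1 was called without Akita replicate 3 or WT replicate 3, whereas 4 were called without Akita replicate 1, Ptpro among them. The share of all genes called was 7.44% to 8.70% in the fits that called none or, without WT replicate 3, 1 member, 10.3% without Akita replicate 3 and 15.4% without Akita replicate 1. The ribosomal share moved with the genotype in this comparison, from 18.4% to 25.5% in WT and from 22.4% to 27.4% in Akita mice, and with that share as a covariate none of the 8 genes and 256 of all 16674 genes were called. On ethanol the share ran from 15.2% to 18.0% in WT and from 15.9% to 25.5% in Akita mice, and Nphs1 alone of the 8 and 1818 of all 17747 genes were called with the covariate. The part of the ribosomal share in these results was not tested. Under MitoGamide, markers of other cells differed between the genotypes too, with 3 of 8 endothelial genes (median 0.30), 2 of 6 mesangial genes (0.25), 3 of 5 collecting duct genes (0.56) and 2 of 4 distal convoluted tubule genes (0.43) called higher and 4 of 8 proximal tubule genes (-0.24) and 1 of the 4 leukocyte genes tested (-0.37) called lower, with medians on the log2 scale. The part of these markers in the result was not tested.

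On the water vehicle none of the 8 genes was called by edgeR, none had an unadjusted p under 0.05 and DESeq2 called none. Of all 18304 genes, edgeR called 0.552%, 1384 had an unadjusted p under 0.05 and DESeq2 called 354. Nphs1 was at 13.8, 30.5, 23.2, 29.9 and 16.6 CPM in WT and at 20.2, 31.1, 22.8, 24.5 and 25.4 CPM in Akita mice. The WT mice spanned nearly the whole range of the Akita mice and more below it. The log2 fold change of Nphs1 was 0.12 with an interval of -0.35 to 0.60, which includes the value on ethanol. Synpo spread still more, at 30.1, 83.9, 60.0, 64.9 and 37.1 CPM in WT mice on water. Wt1 had a log2 fold change of -0.35 (interval -0.83 to 0.13), so its estimate was negative in this arm alone among the 4. The others were at 0.22 for Plce1, 0.19 for Cd2ap, 0.05 for Synpo and for Ptpro, -0.06 for Podxl and -0.20 for Magi2. With 1 library left out, Synpo ran from -0.09 to 0.25, Ptpro from -0.10 to 0.17 and Podxl from -0.15 to 0.07. Nphs1 then ran from 0.004 to 0.25, Plce1 from 0.16 to 0.30 and Cd2ap from 0.10 to 0.31. Wt1 ran from -0.46 to -0.19 and Magi2 from -0.29 to -0.10. Without the 4 water libraries above 30% ribosomal counts, none of the 8 was called, against 4 of all genes, and the values ran from -0.37 for Wt1 to 0.29 for Plce1, with Nphs1 at 0.15. Nphs1 turned to -0.03 with scaling by library totals and to -0.07 with the ribosomal share as a covariate.

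Under MitoQ none of the 8 genes was called by edgeR or DESeq2, and none had an unadjusted p under 0.05. Of all 18143 genes, edgeR called 0.557%, 1644 had an unadjusted p under 0.05 and DESeq2 called 415. Nphs1 was at 11.1, 16.4, 23.1, 11.9 and 12.0 CPM in WT and at 14.2, 17.4, 20.9, 26.7 and 20.5 CPM in Akita mice. The WT mouse at 23.1 was the library with a ribosomal share of 63.2%. The log2 fold change was 0.46 with an interval of -0.00 to 0.92, and it was 0.67 (edgeR adjusted p = 0.120) without the 2 libraries above 30%. Ptpro had a log2 fold change of 0.34 (interval -0.01 to 0.69), which fell to 0.16 without Akita replicate 4, whose 20.5 CPM stood apart from the other Akita mice. Synpo and Plce1 both had a log2 fold change of 0.27, Wt1 had one of 0.19, Podxl one of 0.16 and Cd2ap one of 0.03, and Magi2 had one of -0.07, which turned to 0.09 without these 2 libraries. The 8 values then ran from 0.00 for Cd2ap to 0.67 for Nphs1, and none was called, where 262 of all 18378 genes were.

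**Figure D2:**
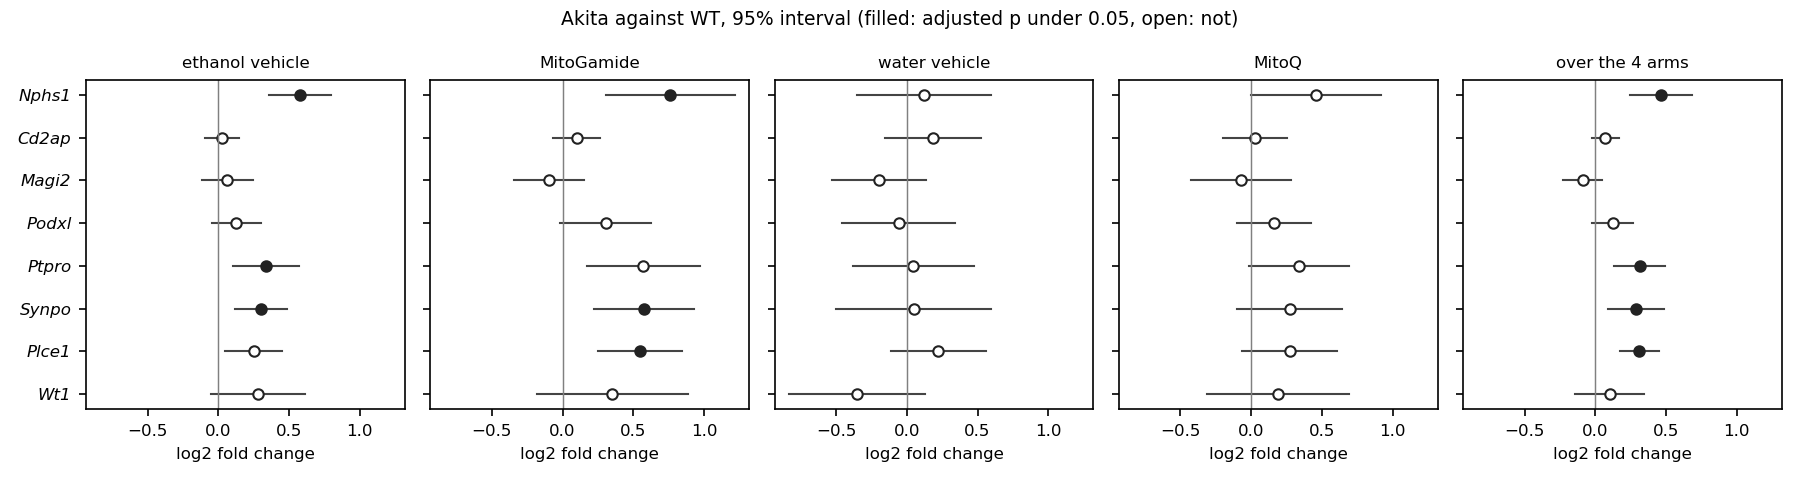
Log2 fold change of each podocyte gene in Akita against WT mice (x axis) in each of the 4 arms and over the 4 arms, with 95% intervals as lines. Filled points had an adjusted p under 0.05 in edgeR's quasi-likelihood test and open points did not. Over the 4 arms, Nphs1, Ptpro, Synpo and Plce1 lay between 0.29 and 0.47, and the intervals of Podxl, Wt1, Magi2 and Cd2ap included 0.

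Over the 4 arms, with each Akita group set against the WT group of its own arm (40 libraries), 4 of the 8 genes rose. Of all 17769 genes tested, 22.8% were called and 11.0% were called higher. Nphs1 had a log2 fold change of 0.47 (SE 0.11, interval 0.25 to 0.68, adjusted p = 0.00117 from edgeR). Plce1 was at 0.31 (SE 0.07, adjusted p = 0.000640), Ptpro at 0.31 (SE 0.09, adjusted p = 0.00739) and Synpo at 0.29 (SE 0.10, adjusted p = 0.0305). These 4 include the nephrin gene, a surface phosphatase, an actin-associated protein and a phospholipase. The other 4 were bounded more closely than in single arms. Podxl was at 0.12 (interval -0.02 to 0.26), Wt1 at 0.10 (interval -0.15 to 0.35), Cd2ap at 0.07 (interval -0.02 to 0.16) and Magi2 at -0.09 (interval -0.23 to 0.05). With 1 library left out, Wt1 ran from 0.04 to 0.17 and Magi2 from -0.11 to -0.03. Podxl then ran from 0.10 to 0.17 and Cd2ap from 0.05 to 0.11.

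The same 4 genes were called without the 6 libraries above 30% ribosomal counts, with log2 fold changes from 0.37 to 0.58, and with the ribosomal share as a covariate, with values from 0.24 to 0.41. Of all genes, 4711 of 17759 and 5724 of 17769 were called in these fits. Synpo lost its call when 1 Akita mouse on MitoQ (replicate 4) was left out (edgeR adjusted p = 0.0515). Whether the genotype effect differed between the arms was tested directly. None of the 8 genes was called by edgeR or DESeq2 and none had an unadjusted p under 0.05, and the unadjusted p was 0.226 for Nphs1 and 0.170 for Wt1, the smallest of the 8. Of all genes, 0% were called by edgeR, 883 had an unadjusted p under 0.05 and DESeq2 called 15.

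The next question was whether MitoGamide changed the podocyte genes. In Akita mice none of the 8 was called by edgeR or DESeq2. Of all genes, edgeR called 1.26% (0% without ethanol replicate 1 or 2, and 4.67% without MitoGamide replicate 5) and DESeq2 called 1069 of 17051. Of the 8 members 2 had an unadjusted p under 0.05, and of all 17051 genes 3564 did. Cd2ap was at 101, 100.4, 92.9, 102 and 98.1 CPM on ethanol and at 113, 108, 114, 104 and 137 CPM on MitoGamide. Its groups did not overlap, as for 4.26% of all genes in the higher direction, and its log2 fold change was 0.22 (interval 0.06 to 0.38, edgeR adjusted p = 0.121). Podxl was at 145, 160.3, 168, 155 and 153 CPM on ethanol and at 152, 174, 183, 183 and 263 CPM on MitoGamide. Its log2 fold change was 0.30 (interval 0.03 to 0.56, edgeR adjusted p = 0.192), with 1 mouse far above the others. Nphs1, which rose in Akita mice, was at 0.09 with an interval of -0.32 to 0.50 on the log2 scale under MitoGamide, and it turned to -0.06 with scaling by library totals and to -0.09 without MitoGamide replicate 5. Synpo was at 0.22 (interval -0.07 to 0.51), Plce1 at 0.23 (interval -0.03 to 0.50) and Ptpro at 0.18 (interval -0.19 to 0.55). Without that mouse the values were 0.12 for Synpo, 0.17 for Plce1, 0.04 for Ptpro, 0.17 for Podxl and -0.10 for Wt1, which was at 0.18 with it. Magi2 was at -0.08 (interval -0.31 to 0.15). Of the markers of other cells, 3 of 8 endothelial genes (median log2 fold change 0.57) and 1 of 6 mesangial genes (0.29) were called higher on MitoGamide, and the summed endothelial level ran from 438 to 518 CPM on ethanol and from 561 to 891 CPM on MitoGamide. Their part in the values of the members was not tested. These comparisons share the Akita mice on ethanol with the genotype comparison on ethanol.

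In WT mice MitoGamide called none of the 8 genes, and 0% of all genes, in edgeR, while 1841 genes had an unadjusted p under 0.05 and DESeq2 called 74 genes, no podocyte gene among them. Cd2ap was at 98.4 ± 5.83 CPM on ethanol and 109.7 ± 3.97 CPM on MitoGamide (SD, n = 5). Its log2 fold change was 0.15 (interval 0.03 to 0.27, edgeR adjusted p = 0.371), and Cd2ap was the 1 member with an unadjusted p under 0.05. Nphs1 was at -0.09 (interval -0.38 to 0.20) and Podxl at 0.12 (interval -0.12 to 0.37), and the other 5 lay between -0.06 for Plce1 and 0.11 for Wt1. With 1 library left out, Nphs1 ran from -0.16 to 0.01, Podxl from 0.03 to 0.20 and Wt1 from 0.01 to 0.25. Synpo then ran from -0.13 to 0.05 and Ptpro from -0.12 to 0.04. Plce1 ran from -0.11 to -0.004, Magi2 from 0.03 to 0.15 and Cd2ap from 0.12 to 0.19. Whether the effect of MitoGamide depended on genotype was tested directly, and this was called for none of the 8 genes by edgeR or DESeq2, with no unadjusted p under 0.05. Of all 17256 genes tested, 0% were called by edgeR, 0 by DESeq2, and 1435 had an unadjusted p under 0.05. The differences ran from -0.17 for Magi2 to 0.29 for Plce1 on the log2 scale.

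**Figure D3:**
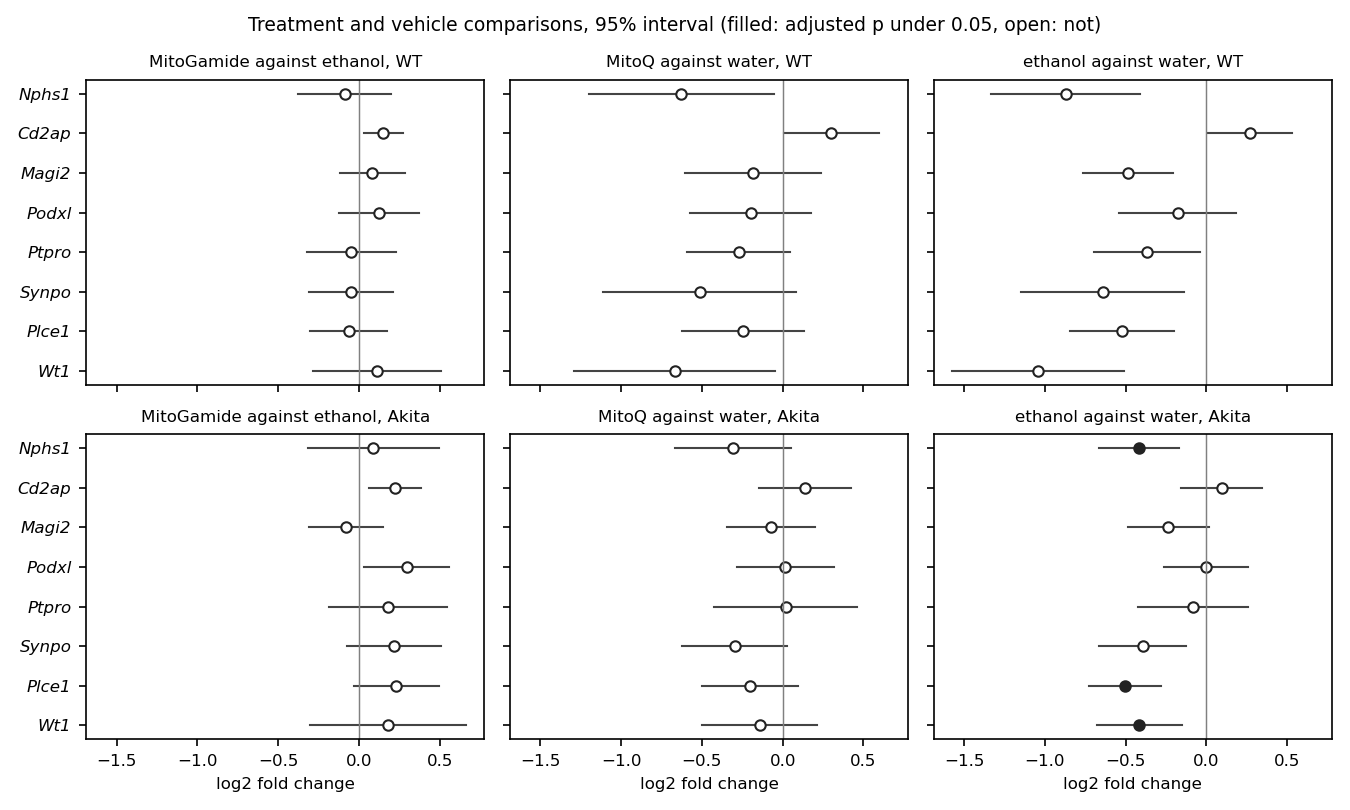
Log2 fold change of each podocyte gene (x axis) for MitoGamide against ethanol, MitoQ against water and ethanol against water, in WT mice (upper row) and Akita mice (lower row), with 95% intervals as lines. Filled points had an adjusted p under 0.05 in edgeR's quasi-likelihood test and open points did not. Of these 48 points, 3 are filled, all for ethanol against water in Akita mice.

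MitoQ called none of the 8 genes against water in either genotype, and 0% of all genes, in edgeR. In Akita mice 363 genes and in WT mice 575 genes had an unadjusted p under 0.05, and DESeq2 called 0 and 2 genes. In WT mice 3 members had an unadjusted p under 0.05, namely Nphs1 with a log2 fold change of -0.63 (interval -1.20 to -0.06), Wt1 with one of -0.67 (interval -1.29 to -0.05) and Cd2ap with one of 0.30 (interval 0.01 to 0.60). None of these passed after adjustment, and the other 5 lay between -0.51 for Synpo and -0.18 for Magi2. In Akita mice no member had an unadjusted p under 0.05, and the values ran from -0.31 for Nphs1 (interval -0.67 to 0.05) to 0.14 for Cd2ap. Without the libraries above 30% ribosomal counts, Nphs1 was at -0.63 in WT and -0.12 in Akita mice and Wt1 at -0.80 in WT and 0.03 in Akita mice, none of them called. A dependence of the MitoQ effect on genotype was called for none of the members by edgeR or DESeq2, with no unadjusted p under 0.05. Of all 18225 genes tested, 0% were called by edgeR, 1 by DESeq2, and 207 had an unadjusted p under 0.05. The differences of the members ran from -0.17 for Cd2ap to 0.53 for Wt1 on the log2 scale. The doses of the 2 drugs cannot be set side by side, and no test between the drugs was made.

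The vehicles differed as well, although ethanol and water were given to different mice. Whether these mice were handled together is not given in the sources used here. In Akita mice Plce1, Nphs1 and Wt1 fell on ethanol relative to water, and the values of each did not overlap. Wt1 was at 5.36, 5.26, 6.21, 6.29 and 5.19 CPM on ethanol and at 6.67, 8.90, 7.48, 7.22 and 8.19 CPM on water. The log2 fold change was -0.42 for Wt1 (SE 0.12, edgeR adjusted p = 0.0446), -0.42 for Nphs1 (SE 0.11, adjusted p = 0.0393) and -0.50 for Plce1 (SE 0.10, adjusted p = 0.0296). The other 5 ran from -0.39 for Synpo to 0.09 for Cd2ap. Of all genes, 12.7% were called and 9.07% were called lower, and 6.24% did not overlap in that direction. The ribosomal share ran from 15.9% to 25.5% on ethanol and from 21.0% to 49.6% on water, and without the 2 water libraries above 30% none of the 8 genes and 1 of all 18164 genes was called, with values of -0.29 for Nphs1, -0.32 for Wt1 and -0.48 for Plce1. None was called either without ethanol replicate 1, 2, 3 or 5 or water replicate 2, 3 or 5, but in these fits few genes of any kind were called, 132 without water replicate 2 and 1 or 2 in each of the others. Without water replicate 1 or 4, 4 members and 36.2% or 34.5% of all genes were called, and without ethanol replicate 4, 1 member and 6.59% of all genes. Of the markers of other cells, the urothelial gene Upk1b, the 1 tested of its list, was called lower on ethanol with a log2 fold change of -3.11, 1 of 4 thick ascending limb genes was called higher (median 0.32), and of the distal convoluted tubule genes 1 was higher and 1 lower. No proximal tubule gene (median 0.33) or endothelial gene (median 0.20) was called. The part of these markers in the result was not tested. The set of mice, the vehicle and the ribosomal share cannot be told apart here.

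In WT mice edgeR called none of the members, and 0% of all genes, on ethanol against water, although 7 of the 8 members and 4959 genes had an unadjusted p under 0.05. Wt1 was at 4.10, 3.32, 6.32, 5.30 and 4.45 CPM on ethanol and at 7.53, 14.1, 8.32, 13.0 and 6.22 CPM on water. Only the lowest mouse on water lay among the values on ethanol. Magi2 values did not overlap, as for 1.98% of all genes in the lower direction. Wt1 had a log2 fold change of -1.04 (interval -1.58 to -0.51, edgeR adjusted p = 0.145), and the other 7 ran from -0.87 for Nphs1 to 0.27 for Cd2ap. Without the 2 WT water libraries above 30% ribosomal counts, Wt1 was at -0.96 and Nphs1 at -0.70. DESeq2 called 725 genes, among them Nphs1, Wt1, Plce1 and Magi2, each lower. Without replicate 5 on water, edgeR called 6 members, of which 5 were lower and Cd2ap was higher, and 5216 of all 18225 genes tested, or 28.6%.

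Balance among the members was described by setting each gene against the mean of the other 7 in the same library, on the log2 scale. Nphs1 was higher in Akita than in WT mice by 0.38 on ethanol, 0.38 under MitoGamide, 0.16 on water and 0.28 under MitoQ. Relative to the other 7, Magi2 was lower in each arm, with differences of -0.21, -0.52, -0.24 and -0.29 in that order. The log2 fold change of Magi2 itself was 0.06, -0.10, -0.20 and -0.07 in these arms. Cd2ap had differences of -0.25, -0.30, 0.18 and -0.19. In the same order Synpo had 0.06, 0.24, 0.11 and 0.10, and Podxl had -0.13, -0.07, -0.08 and -0.04. Plce1 had -0.002, 0.18, 0.23 and 0.06. Ptpro had 0.11, 0.18, -0.01 and 0.12, and Wt1 had 0.05, -0.10, -0.35 and -0.03. These differences from the other members were not tested. Within an arm they cancel out by construction, so a rise of some members lowers the values of others.

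The order of the 8 groups differed between genes. Nphs1, Synpo and Plce1 were highest in Akita mice on water and lowest in WT mice on MitoGamide, with means 2.13, 1.68 and 1.76 times apart. Nphs1 means rose from 11.6 ± 1.79 CPM in WT mice on MitoGamide through 12.3 ± 1.95 in WT mice on ethanol, 14.9 ± 5.05 in WT mice on MitoQ, 18.3 ± 1.23, 19.4 ± 6.70 and 19.9 ± 4.63 in Akita mice on ethanol, MitoGamide and MitoQ, to 22.8 ± 7.55 and 24.8 ± 4.06 in WT and Akita mice on water (SD, n = 5). No step between neighbours exceeded the larger of their SDs. Wt1 and Magi2 were highest in WT mice on water. Cd2ap ran the other way, lowest in WT mice on water (82.2 ± 11.7 CPM) and highest in Akita mice on MitoGamide (115 ± 12.8 CPM), and its highest mean was 1.40 times the lowest. Podxl varied least, with means 1.33 times apart.

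A list of 36 other podocyte genes was examined to place the members, of which 34 passed the filter on low counts over the 40 libraries. Kirrel2 and Trpc6 did not. Over the 4 arms 15 of the 34 were called in Akita against WT mice, 11 of them higher and 4 of them lower, beside 22.8% of all genes called and 11.0% called higher. Their median was 0.12 on the log2 scale, against -0.02 over all genes. The list was chosen with earlier results of these data known, so these values are a description only. Of the slit diaphragm and membrane genes, Kirrel, which encodes the nephrin relative NEPH1, rose by 0.32, and Itga3, the integrin that anchors podocytes to laminin, rose by 0.16 on the log2 scale. Of the actin regulators, Pdlim2 (0.36), Inf2 (0.33) and Ezr (0.15) rose and Arhgap24 fell by 0.21. Not all of these genes varied with the members between mice. Over the 40 libraries, group means removed, Pearson's r with the mean of the members was 0.55 for Inf2 and 0.22 for Ezr. It was -0.14 for Pdlim2 and -0.52 for Arhgap24, against 0.56 for Kirrel and 0.48 for Itga3. Which cells of the cortex gave these changes was not tested.

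Genes of the glomerular basement membrane moved in both directions. Lama5 and Lamb2, chains of the mature laminin, rose by 0.42 and 0.21 on the log2 scale. Col4a3 and Col4a4, chains of the mature type IV collagen network that are mutated in Alport syndrome, fell by 0.51 and 0.52. Col4a4 had a mean of 289 ± 28.7 CPM in WT and 202 ± 21.9 CPM in Akita mice on ethanol (SD, n = 5; edgeR adjusted p = 0.00182 in that arm and 1.98e-07 over the 4 arms). The third chain of this network, Col4a5, named here after its values were seen, was at -0.08 (edgeR adjusted p = 0.284). Npnt, which encodes the matrix protein nephronectin, fell by 0.26. These collagen and nephronectin genes are also expressed by tubule cells. Among secreted factors Sema3g rose by 0.68 (edgeR adjusted p = 1.60e-06) and Bmp7 by 0.34. Pearson's r with the mean of the members, group means removed, was 0.64 for Sema3g and -0.08 for Bmp7. The source cells of these changes were not tested.

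Cdkn1c, the cell cycle inhibitor p57 of mature podocytes, rose by 0.64 over the 4 arms (SE 0.13, edgeR adjusted p = 0.000273). It was at 7.88 ± 1.57 CPM in WT and 14.7 ± 1.97 CPM in Akita mice on ethanol (SD, n = 5). No transcription factor of the list passed over the 4 arms. On ethanol 13 of 34 listed genes were called, 8 higher and 5 lower, and under MitoGamide 14 of 34, 12 higher and 2 lower, beside 16.4% and 14.3% of all genes. On water and under MitoQ none was called by edgeR. On water 3 of 35 listed genes had an unadjusted p under 0.05, beside 1384 of all 18304 genes. Under MitoQ 7 of 34 did, beside 1644 of all 18143 genes.

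**Figure D4:**
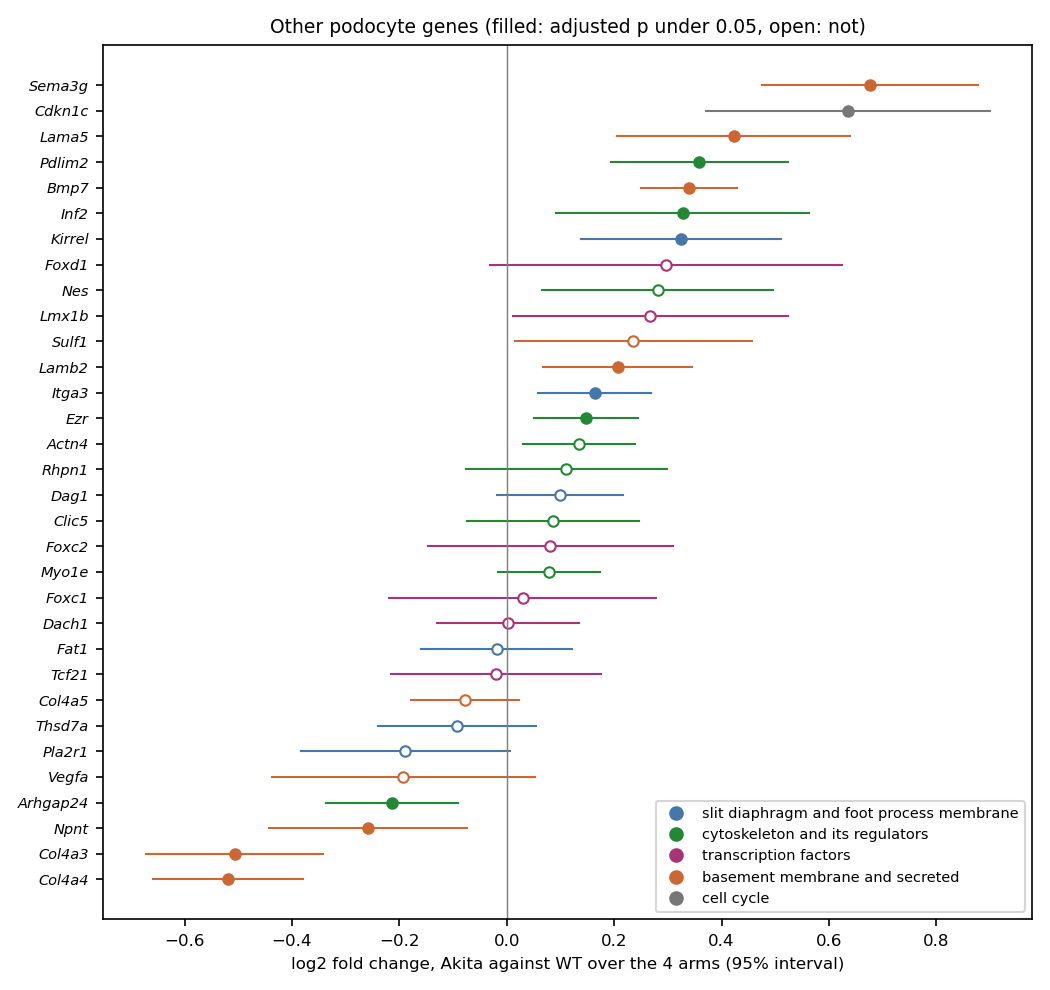
Log2 fold change of other podocyte genes in Akita against WT mice over the 4 arms (x axis), ordered by value and coloured by role, with 95% intervals as lines. Filled points had an adjusted p under 0.05 in edgeR's quasi-likelihood test. Sema3g (0.68) and Cdkn1c (0.64) are at the upper end and Col4a3 (-0.51) and Col4a4 (-0.52) at the lower end.

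Markers listed for endothelium and mesangium were followed beside these results. A bulk sample of cortex cannot tell their glomerular sources from others. Of 8 endothelial genes, 3 were called higher (Pecam1, Cdh5, Ptprb) and 1 lower (Emcn) over the 4 arms. Their median log2 fold change was 0.06. Of 6 genes listed for mesangium, 2 were called higher (Gata3, Serpine2), with a median of 0.01. The summed endothelial level ran from 413 to 586 CPM in WT and from 438 to 518 CPM in Akita mice on ethanol, and from 476 to 769 CPM in WT and from 561 to 891 CPM in Akita mice on MitoGamide. None of 8 proximal tubule genes was higher and 4 were lower over the 4 arms, with a median of -0.25. Of the distal convoluted tubule genes 2 of 4 were higher (median 0.38) and of the collecting duct genes 3 of 5 (0.33), while 3 of the 4 leukocyte genes tested (-0.49) and 1 of 4 thick ascending limb genes (-0.12) were lower. The summed level of the proximal tubule genes ran from 14573 to 18137 CPM in WT and from 11018 to 14787 CPM in Akita mice on ethanol. The part of these shifts in the podocyte results was not tested.

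After removal of group means, most podocyte genes varied together between mice. Over the 28 pairs and 40 libraries, Pearson's r ran from -0.12 to 0.93 with a median of 0.56. Nphs1 and Synpo gave the highest value, and Nphs1 and Plce1 gave 0.82. With the mean of the other 7 genes, r was 0.88 for Nphs1, 0.82 for Plce1 and 0.80 for Synpo, but 0.50 for Magi2 and 0.13 for Cd2ap. The points share the library, its depth and its ribosomal share. With the ribosomal share, r was 0.72 for Magi2, 0.63 for Synpo, 0.60 for Nphs1 and for Plce1 and 0.52 for Wt1, against 0.14 for Podxl, 0.06 for Ptpro and -0.08 for Cd2ap. In the 20 libraries of the ethanol set the median pair gave 0.46, and in the 20 of the water set it gave 0.50. The pairs of Cd2ap ran from 0.12 to 0.55 in the ethanol set and from -0.23 to 0.44 in the water set.

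**Figure D5:**
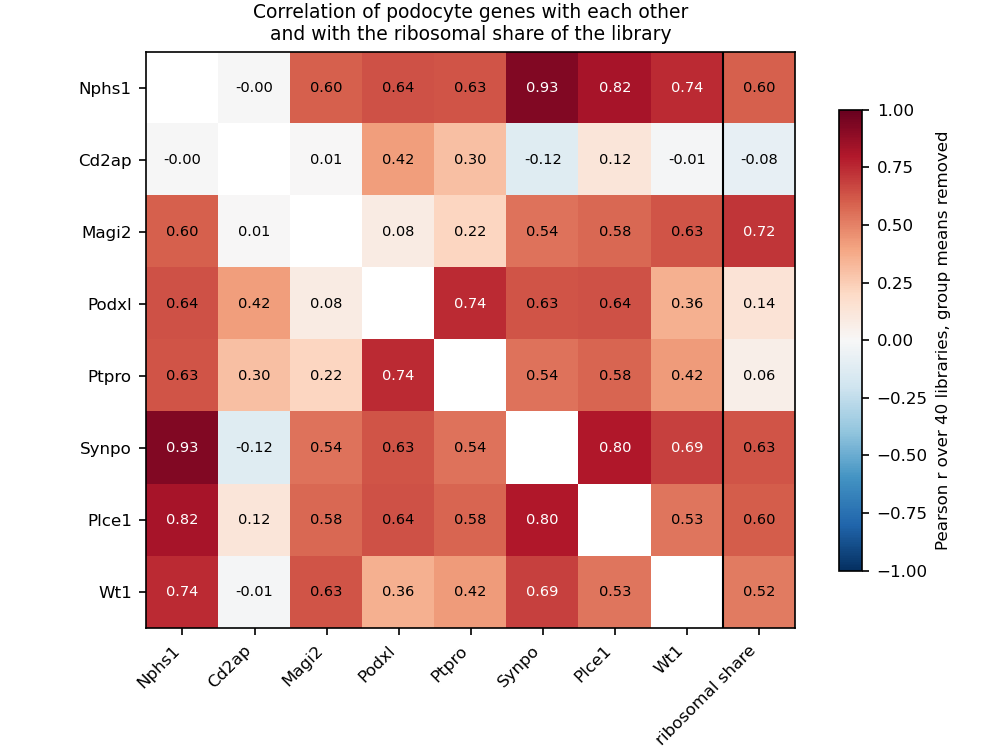
Pearson's r between the podocyte genes (rows and columns) over 40 libraries after removal of group means, with the ribosomal share of the library as the last column. Red is positive and blue is negative. Nphs1 with Synpo (0.93) is highest, and Cd2ap lies near 0 with most other members.

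The genes most like the members were found by correlating the mean of the 8 genes with each of 17761 genes over the 40 libraries, group means removed. The 10 highest, with r from 0.79 to 0.81, were Nebl, Srgap1, Asxl1, Ralgapa2, BB365896, Cdkn1c, Gm20706, Gm36445, Cntfr and Prkab1. Cdkn1c alone of these was on the list of 36. With group means left in, the 10 highest included Cdkn1c, Nes and Lmx1b of that list together with Crb2, and 4 genes were shared between both sets. Of the 34 listed podocyte genes 13 had r above 0.5, with a median of 0.41, against a median of 0.04 over all genes compared. The 8 proximal tubule genes had a median of -0.29 and the 8 endothelial genes one of 0.10. The 4 distal convoluted tubule genes had a median of 0.47, with 2 of them above 0.5, and of 17688 genes on no list 1000 were above 0.5.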

How the data were processed

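RNA of the renal cortex was sequenced as directional single reads after depletion of ribosomal RNA. Per the labels and the study's methods, the authors trimmed reads with Skewer, quantified transcripts of GENCODE (GRCm38) with kallisto 0.46.1 and summed them to genes in R 4.0.2. The deposited values are estimated counts per gene, given as whole numbers, for 40 mice.

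Each comparison was fitted with edgeR 4.0.16 (quasi-likelihood test, TMM scaling, R 4.3.3) on the libraries it concerns, keeping genes whose counts averaged 10 or more. P-values were adjusted over all genes tested (Benjamini-Hochberg), with a threshold of 0.05. They set the difference between groups against the spread between mice. Levels are CPM scaled over the 40 libraries, and correlations used log2(CPM + 0.5). Standard errors of log2 fold changes were derived from the F statistic, and intervals are 95%. The code was tested on simulated data. Alternatives were DESeq2 1.42.0, DESeq2 size factors, other filters on low counts, a replicate block, all 40 libraries in one fit and leaving out each library. Library totals, the ribosomal share as a covariate and leaving out libraries above 30% ribosomal counts were added after the data were seen. The study's own test was DESeq2 and its threshold on low counts was kept here.

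The members and gene lists were chosen with earlier results of these data known. All members are covered in each comparison, singly or by the range of their values. Other podocyte genes could be named if they were called in any comparison, and genes most like the members by their correlation. Promoter windows are from RefSeq (GRCm38.p6), where 4 of the members gave the windows printed and the windows of Magi2 are described only. Some genes of the list of other podocyte genes are counted with it but are not reported here singly.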

Additional observations from a re-analysis of the deposited data

Results flagged for a closer look

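In 11 of the 64 sets of 5 mice (8 genes in 8 groups), 1 mouse stood apart, its gap to the nearest mouse being more than 0.71 of the range of its group. Chance gives about 1 in 20 such sets if sets are independent. The 8 genes share the same libraries, and single mice gave several of the sets, so this rate is only a rough guide. In WT mice on MitoQ, replicate 3 was highest for Wt1 (10.8 CPM), Synpo (58.0 CPM), Plce1 (13.4 CPM) and Magi2 (35.5 CPM). This library had a ribosomal share of 63.2%. In Akita mice on MitoGamide, replicate 5 was highest for Podxl (263 CPM) and Wt1 (11.6 CPM). In WT mice on MitoGamide, replicate 1 was lowest for Nphs1 (8.57 CPM) and highest for Cd2ap (116 CPM). Ptpro was highest in replicate 4 of the Akita mice on MitoQ (20.5 CPM). Magi2 was highest in replicate 2 of the Akita mice on water (28.7 CPM), a library with a ribosomal share of 49.6%. Cd2ap was highest in replicate 5 of the WT mice on water (103 CPM).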

How the results depend on the processing

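Of 808 log2 fold changes of the 8 genes under alternatives other than leaving out 1 library, 766 kept their side of the threshold, 27 lost the call and 15 gained one, and no called value changed sign. On ethanol, 3 genes were called in Akita against WT mice, against 1 with library totals, 1 with the ribosomal share as a covariate and 0 with all 40 libraries in one fit. Under MitoGamide, 3 were called, against 0 with the covariate. For ethanol against water in Akita mice, 3 were called, against 0 without a filter, 0 with library totals, 0 without libraries above 30% ribosomal counts and 1 with all 40 libraries. For ethanol against water in WT mice, 0 were called, against 4 in DESeq2 and 5 with all 40 libraries. Without 1 library at a time the count ran from 1 to 3 on ethanol, 0 to 4 under MitoGamide, 3 to 4 over the 4 arms, 0 to 4 for ethanol against water in Akita and 0 to 6 in WT mice, and it was 0 in all such fits of the other comparisons. The cause of these changes was not tested. Over all genes, 2910 were called on ethanol, against 844 with all 40 libraries, 1818 with the covariate and 2274 with library totals. Under MitoGamide 2386 were called, against 256 with the covariate. On water 101 were called, against 354 in DESeq2, 547 with all 40 libraries, 252 with the covariate and 4 without libraries above 30%. Under MitoQ 101 were called, against 415 in DESeq2, 308 with all 40 libraries, 293 with the covariate, 262 without libraries above 30% and 63 with library totals. MitoGamide in Akita mice called 214 genes, against 1069 in DESeq2 and 32 with all 40 libraries. Ethanol against water called 2283 genes in Akita mice, against 4264 in DESeq2, 2610 with all 40 libraries and 1352 without a filter. It called 185 with library totals and 1 without libraries above 30%. In WT mice it called 0, against 725 in DESeq2 and 1567 with all 40 libraries. Over the 4 arms 4045 genes were called, against 2618 with library totals. Library totals moved the median log2 fold change of all genes to -0.13 on water and 0.17 under MitoQ, and to -0.15 for MitoGamide in Akita mice and 0.16 and -0.15 for MitoQ in Akita and WT mice.

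Replicate numbers did not pair the mice, since same-numbered mice correlated between -0.50 and 0.52 on water and between -0.01 and 0.09 on ethanol. With the replicate block, 5 of the 8 genes were called under MitoGamide, 2 on ethanol, 4 over the 4 arms and 0 for ethanol against water in Akita mice. In each comparison of 2 groups, 1 or 2 of 5 mice correlated best with their own number. Over all genes the block gave 2282 calls under MitoGamide, 2566 on ethanol, 4026 over the 4 arms, 32 on water, 48 under MitoQ, and 0 for MitoGamide and for ethanol against water in Akita mice.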
